A study of Homo sapiens with 4 samples.

Results

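DNA repair and damage checkpoint genes were followed through the response of pancreatic cancer cells to neobractatin (NBT) and trametinib. The set held 35 genes, taken by gene symbol from the 16834 genes of the expression table, and all 35 were found there. By role they were 11 genes of homologous recombination, 9 of the Fanconi anemia pathway, 1 nuclease and a pair of RecQ helicases (3 genes together), 2 of mismatch repair, 4 checkpoint kinases, 2 of single-strand break repair and 4 of end joining. NBT is a natural compound from Garcinia bracteata, and trametinib is an inhibitor of the kinase MEK. RNA was sequenced from cells labelled MIA PaCa-2, a line from a pancreatic carcinoma, with genotype WT, in 4 conditions: a control, 1 µM NBT, 5 µM trametinib, and 1 µM NBT with 5 µM trametinib (the combination). The design gives 12 h for the treatments. Each condition had 1 library, so every difference below is between 2 libraries, no value has a replicate error, and no p-value is given.

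A break across both DNA strands can be repaired by homologous recombination, which copies a sister chromatid and works mainly in S and G2 phase, or by end joining, which ligates the ends at any time of the cycle. The Fanconi anemia pathway unhooks crosslinks between strands and hands the resulting break to homologous recombination, while mismatch repair removes errors left by the replication fork. The kinases ATM, ATR, CHEK1 and CHEK2 signal breaks and stalled forks and hold the cycle until repair is done. Many genes of recombination and replication-linked repair are transcribed most strongly around the start of S phase, in part under E2F factors, and the pathway is of interest in pancreatic carcinoma because a share of these tumours carries inherited defects in it.

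Read depth was similar in the 4 libraries, with sums of estimated counts from 18776212 in the control to 19614763 with the combination. Every one of the 35 genes had at least 100 counts in every library, from 143 for FANCM with the combination to 15384 for PRKDC in the control. Keratin genes were high (in TPM, a level scaled to transcript length and library, KRT8 stood at 3799 and KRT18 at 3142 in the control), and PTPRC, PECAM1, COL1A1 and CPA1, markers of leukocytes, endothelium, fibroblasts and acinar cells, stayed at or below 1.69 TPM. The cell line entries of the labels differ between the libraries (MIA PaCa-2 in the control, and the same name with another final number in each treated library), while the titles name MIA PaCa-2 throughout. Some levels went against that name. MIA PaCa-2 is known to lack CDKN2A and to have low E-cadherin, yet CDKN2A stood between 249 and 342 TPM and the E-cadherin gene CDH1 between 51.2 and 86.9 TPM, and the mesenchymal gene VIM was low, between 11.5 and 26.4 TPM. CDKN2A and CDH1 were chosen for this after their values were seen, these ranges span all 4 libraries, and whether the cells are another line was not tested.

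Promoter sequences of the genes are shown first, as a description of sequence. RefSeq promoter windows of the GRCh38.p14 build (250 bases before each start) were matched for 31 of the 35 genes, in 49 windows, with no window for FANCI, WRN, PRKDC and XRCC5. An E2F motif was searched on both strands as the letters TTCGCGC, as the close relative TTGGCGC and as another form written TTCCCGC. It stood in 14 of the 49 windows (28.6%), against 9.32% of all 35116 windows and 14.5% of the 12899 windows of expressed genes. These 14 windows belonged to 10 genes, BLM, BRCA1, FANCC, FANCG, FANCL, MSH6, PARP1, RAD51D, RAD54L and XRCC1, and some windows of 1 gene overlap. Of these 10 genes, the 6 with the largest reductions with the combination are printed. BRCA1 (log2 fold change -0.22), FANCC (-0.19), XRCC1 (-0.17) and RAD51D (0.14) are not. Below, the strand of the gene is written 5′ to 3′ with the match in capitals, for these 6 genes: RAD54L (chr1:46247599-46247685, plus strand, match from -49 to -43 counted from the start), BLM (chr15:90717232-90717318, plus strand, from -74 to -68), FANCG (chr9:35079980-35080066, minus strand, from -84 to -78), PARP1 (chr1:226408094-226408151, minus strand, from -18 to -12), FANCL (chr2:58241407-58241435, minus strand, from -99 to -93) and MSH6 (chr2:47783400-47783428, plus strand, from -191 to -185 of an alternative start inside the gene).
RAD54L: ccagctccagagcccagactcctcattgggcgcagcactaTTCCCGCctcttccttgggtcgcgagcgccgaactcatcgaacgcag
BLM: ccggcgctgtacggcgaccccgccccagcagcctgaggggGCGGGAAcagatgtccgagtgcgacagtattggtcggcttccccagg
FANCG: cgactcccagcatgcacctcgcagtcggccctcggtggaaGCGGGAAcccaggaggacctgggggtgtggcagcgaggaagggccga
PARP1: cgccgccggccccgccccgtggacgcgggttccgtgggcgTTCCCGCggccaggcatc
FANCL: cctccaggatcTTCCCGCcaaggctgggg
MSH6: ggcccaggcccTTGGCGCgctccgcgtca

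RAD54L, PARP1 and FANCL carry TTCCCGC on the strand of the gene, and BLM and FANCG carry it on the other strand, where it reads GCGGGAA. The CCAAT box letters, a common promoter element, stood in 23 of 49 windows (46.9%) against 32.0% of all windows and 33.4% of those of expressed genes. The letters TTTGAA of the CHR, an element of late cell cycle promoters, stood in 8.16% against 13.3% and 8.86%, TGATGNAA of the ATF4 composite element in 2.04% against 3.14% and 1.60%, and TGACNNNGC of the antioxidant response element in 6.12% against 10.9% and 11.7%, in the same order. A match is a run of letters, not a shown binding site. The 10 genes with an E2F match had a median log2 fold change with the combination of -0.44 (from -0.89 to 0.14, 9 of 10 below 0), and the 21 matched genes without it a median of -0.28 (from -0.88 to 0.54, 17 of 21 below 0), and the 2 ranges overlapped. Whether an E2F match has a part in these changes was not tested.

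As a group the genes were lowest with the combination. Together they took 0.329% of all counts in the control, 0.288% under NBT, 0.298% under trametinib and 0.248% under both drugs. PRKDC, XRCC5 and XRCC6 alone made up from 46.0% to 48.5% of the set's counts, and the sum of the other 32 genes was likewise highest in the control and lowest with both drugs, at 31789 counts for the control, 29959 for NBT, 29097 for trametinib and 26282 for the combination. On the scale of counts divided by the library sum, 24 of the 35 genes (68.6%) had their lowest value in the combination library, against 29.0% of the 10662 genes with at least 100 counts in a library. The control library held the highest value for 19 genes (54.3%), against 22.9%. For 17 genes (48.6%) the control was highest, both single drugs lay between, and the combination was lowest, an order found in 15.4% of genes.

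**Figure D1:**
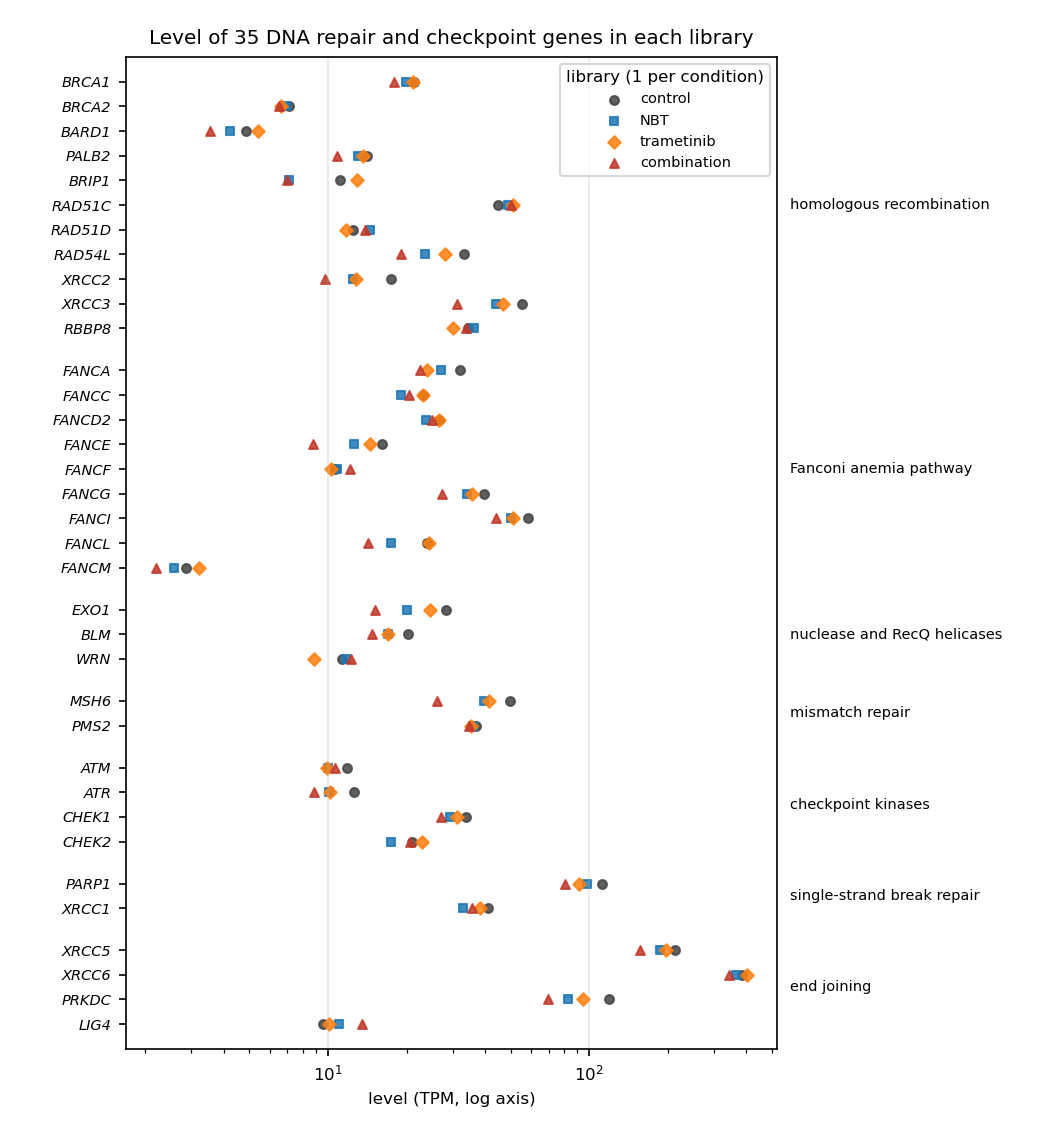
Level of each of the 35 genes in TPM (log axis, deposited values) in the control (circles), NBT (squares), trametinib (diamonds) and combination (triangles) libraries, 1 library per condition, grouped by role. The combination triangle is the leftmost mark for most genes, with LIG4 as the clearest opposite case, and levels in the control run from 2.86 TPM for FANCM to 386 TPM for XRCC6.

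The size of these differences was small. A gene was called when the exact binomial comparison of its 2 counts had an adjusted value (Benjamini-Hochberg, over all genes with a count) of at most 0.05 and the change was at least 2-fold, which are the limits of the study. None of the 35 genes was called in any of 5 comparisons. In NBT against control, 1.6% of all genes tested were called higher and 1.01% lower. In trametinib against control the shares were 3.82% and 2.15%, in combination against control 4.73% and 3.69%, in combination against NBT 2.38% and 1.99%, and in combination against trametinib 2.56% and 3.55%. With the limit lowered to 1.5-fold, 8 of the 35 genes (22.9%) were lower with the combination than in the control and none was higher. Among genes with at least 100 counts in 1 of the libraries compared, as all 35 had, the shares were 10.5% lower and 12.1% higher. The 8 genes were RAD54L, XRCC2, XRCC3, FANCE, FANCL, EXO1, MSH6 and PRKDC. Neither drug alone put a gene past 1.5-fold, where 3.34% of genes of that depth were lower and 4.44% higher with NBT, and 5.52% lower and 7.74% higher with trametinib. Against trametinib alone, 5 genes were lower with the combination (BRIP1, FANCE, FANCL, EXO1 and MSH6) and none higher, beside shares of 9.78% and 7.98%. Against NBT alone 1 gene was lower (MSH6) and none higher, beside 4.8% and 5.14%. When a coefficient of variation of 0.2 or 0.4 between cultures was assumed in place of counting error alone, none of the 35 passed at 1.5-fold in any comparison. With 1 library per condition this assumption leaves little room to call changes of at most 1.85-fold, the largest here, so it decides nothing about these genes.

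Counting intervals resolved smaller changes. A 95% interval of the ratio of 2 counts lay below 0 on the log2 scale for 18 of 35 genes with NBT and above 0 for 3, while 30.7% of genes with at least 100 counts lay below and 27.5% above. With trametinib it lay below for 15 and above for 2 (27.8% and 37.8% of such genes), and with both drugs below for 23 and above for 2 (35.9% and 37.7%). Set against NBT alone, the combination had 22 intervals below and 1 above (27.6% and 32.4%), and set against trametinib alone 23 below and 5 above (37.6% and 32.3%). The genes above were RAD51D, RBBP8 and LIG4 with NBT, BRIP1 and XRCC6 with trametinib, and FANCF and LIG4 with the combination. Median log2 fold changes of the 35 genes were -0.14 with NBT (all genes -0.01), -0.08 with trametinib (all genes 0.08) and -0.35 with the combination (all genes 0.05). These intervals cover counting error only. In bulk RNA, less RNA per cell and fewer cells in the phase that makes it cannot be told apart.

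**Figure D2:**
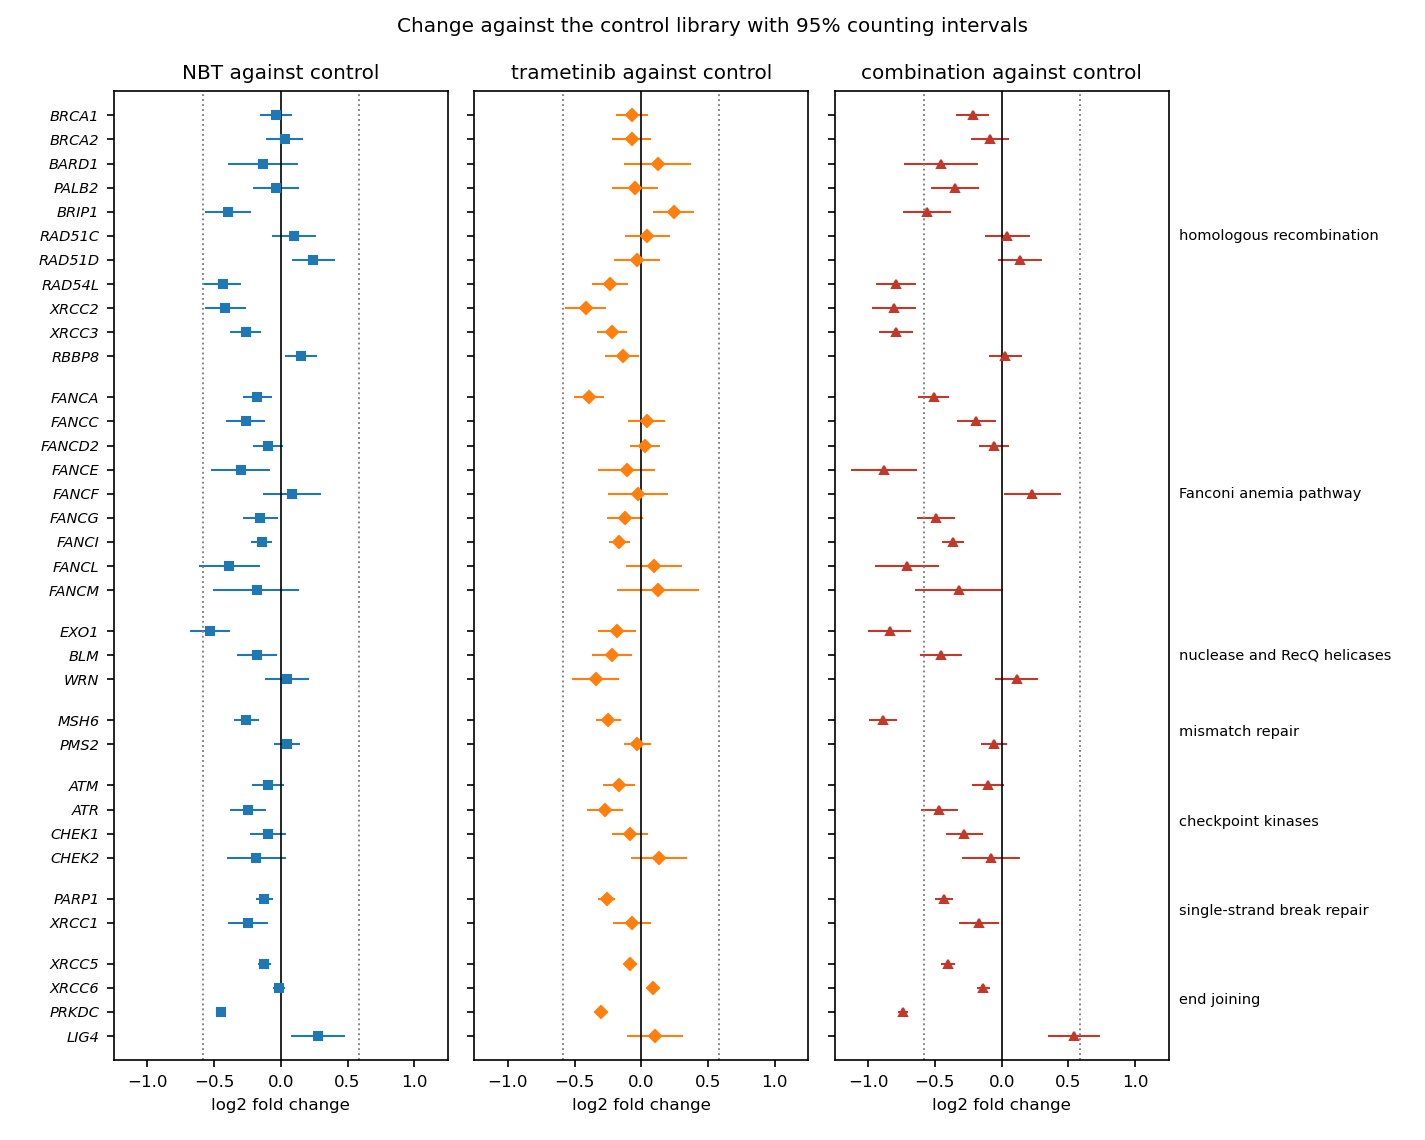
Log2 fold change against the control library for each of the 35 genes with NBT, trametinib and the combination, with 95% counting intervals as bars and dotted lines at 1.5-fold. No gene lies beyond the dotted lines with either single drug, while 8 genes lie beyond the left line with the combination and none beyond the right one.

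Within homologous recombination, BRCA1 and BRCA2 differed little between libraries, PALB2 and BARD1 were lower with the combination, and RAD54L, XRCC2 and XRCC3 passed 1.5-fold. Levels here and below are TPM in the order control, NBT, trametinib, combination, and log2 fold changes come from the counts, so the 2 scales need not match exactly. BRCA1, which pairs with BARD1 and starts recombination at resected ends, measured 21.3 TPM in the control, 19.9 under NBT, 21.1 under trametinib and 17.8 under both. BRCA2, a mediator of strand exchange, measured 7.11, 6.92, 6.64 and 6.52 TPM. Their log2 fold changes with the combination were -0.22 (interval -0.34 to -0.09) and -0.08 (interval -0.23 to 0.06), the latter not separable from 0 by its counts. PALB2, which bridges the pair, stood at 14.1, 13.1, 13.6 and 10.9 TPM (log2 -0.35 with the combination), and BARD1 at 4.86, 4.22, 5.42 and 3.53 TPM (log2 -0.45). For both the single-drug libraries stayed near the control, with single-drug intervals that held 0, and the combination library alone was apart. RBBP8, which starts end resection, stood at 34.3, 36.2, 30.2 and 33.6 TPM, with log2 fold changes of 0.15 with NBT, -0.14 with trametinib and 0.03 with both.

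RAD54L, XRCC2 and XRCC3 fell past 1.5-fold with the combination. RAD54L, a motor protein that drives strand exchange, measured 33.3 TPM in the control, 23.5 under NBT, 28.0 under trametinib and 19.03 under both, a log2 fold change of -0.79 (interval -0.94 to -0.64), or 1.73-fold lower. XRCC2 measured 17.4, 12.5, 12.8 and 9.71 TPM, a log2 fold change of -0.80 (interval -0.97 to -0.64). XRCC3 measured 55.3, 44.0, 46.7 and 31.2 TPM, a log2 fold change of -0.79 (interval -0.92 to -0.66). In all 3 genes each single drug lay between control and combination. The genes of complexes that assist strand exchange were thus split: RAD51C, the partner of XRCC3, stood at 44.7, 48.8, 51.1 and 50.4 TPM (log2 0.04), and RAD51D, the partner of XRCC2, at 12.4, 14.5, 11.7 and 13.9 TPM (log2 0.14), both with intervals that held 0. BRIP1, a helicase bound to BRCA1, had single-drug intervals on opposite sides of 0, as RBBP8 had with the signs exchanged. It measured 11.1 TPM in the control, 7.08 under NBT, 12.9 under trametinib and 6.98 under both, a log2 fold change of -0.39 with NBT, 0.24 with trametinib and -0.56 with both. Scaled to library sums, it lay just inside the 1.5-fold limit against the control, and with DESeq2 size factors just past it (log2 -0.59). Against trametinib alone it passed the limit, with a log2 fold change of -0.80.

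The Fanconi genes differed by subunit. The core complex, which attaches ubiquitin to FANCD2 and FANCI, is represented by FANCA, FANCC, FANCE, FANCF, FANCG, FANCL and FANCM. With the combination, intervals lay below 0 for 5 of these 7 genes and above 0 for 1 (median log2 fold change -0.49, from -0.88 to 0.23), beside 35.9% and 37.7% of genes with at least 100 counts. FANCE, which holds FANCD2 to the complex, measured 16.2 TPM in the control, 12.6 under NBT, 14.5 under trametinib and 8.80 under both, a log2 fold change of -0.88 (interval -1.13 to -0.63). FANCL, the ubiquitin ligase itself, measured 24.0, 17.4, 24.4 and 14.3 TPM, a log2 fold change of -0.71 (interval -0.95 to -0.47). Both fell past 1.5-fold, and in both the trametinib library was close to the control. FANCG (39.6, 34.0, 35.8 and 27.4 TPM) and FANCA (32.1, 27.1, 24.1 and 22.4 TPM), which sit together in the complex, had log2 fold changes of -0.49 and -0.51 with the combination, and for FANCA the larger single-drug difference was with trametinib (log2 -0.39). FANCC was lowest with NBT, at 23.2, 19.02, 23.0 and 20.5 TPM. FANCF went the other way, at 10.7, 10.8, 10.3 and 12.2 TPM (log2 0.23, interval 0.02 to 0.44), though with TMM factors (-0.01 to 0.41) or DESeq2 size factors (-0.02 to 0.41) its interval held 0. FANCM, the translocase that anchors the complex, was the least abundant gene of the set, at 2.86, 2.58, 3.22 and 2.19 TPM, with an interval that held 0. Of the 2 substrates, FANCD2 was level at 26.7, 23.7, 26.7 and 25.1 TPM (log2 -0.06, interval -0.17 to 0.05), while FANCI stood at 58.2, 50.2, 51.2 and 44.1 TPM (log2 -0.36, interval -0.45 to -0.28).

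EXO1 (chr1:241847986-241889939, GRCh38.p14), a nuclease that resects breaks and removes mismatched strands, had the largest reduction with NBT alone on the count scale, while on the TPM scale BRIP1 had it (log2 -0.65). It measured 28.2 TPM in the control, 20.1 under NBT, 24.7 under trametinib and 15.1 under both. The log2 fold changes were -0.53 with NBT (interval -0.68 to -0.38), -0.18 with trametinib and -0.84 with both (interval -1.001 to -0.68). BLM, a RecQ helicase that dissolves recombination intermediates, measured 20.3, 17.0, 17.0 and 14.8 TPM (log2 -0.46 with the combination). WRN, the other RecQ helicase, had a different order: 11.3 TPM in the control, 11.7 under NBT, 8.88 under trametinib and 12.3 under both. Its trametinib value was the lowest of the 4, with a log2 fold change of -0.34 (interval -0.52 to -0.16), and the combination was above trametinib alone by 0.45 (interval 0.28 to 0.63).

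MSH6 (chr2:47783145-47810101, GRCh38.p14), which recognises mismatches, showed the largest change of the 35 genes, with the combination against the control. FANCE (-0.88) and EXO1 (-0.84) were close, with counting intervals that overlapped that of MSH6. MSH6 measured 49.6 TPM in the control, 39.6 under NBT, 41.2 under trametinib and 26.3 under both, from 2014, 1742, 1713 and 1135 counts. The combination was lower than every other library, by a log2 fold change of -0.89 against the control (interval -0.997 to -0.78, or 1.85-fold), -0.63 against NBT and -0.64 against trametinib. PMS2, which cuts the mismatched strand, was level at 36.8, 36.0, 35.2 and 34.6 TPM, with intervals that held 0 in each comparison with the control, and its near-identical pseudogenes make its estimated counts uncertain.

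Among the checkpoint kinases, ATR, ATM and CHEK1 were below the control in every treated library, and only ATR had an interval below 0 in each. ATR, which answers stalled forks, measured 12.6 TPM in the control, 10.1 under NBT, 10.2 under trametinib and 8.85 under both (log2 -0.47, interval -0.61 to -0.33). CHEK1, the kinase activated by ATR, measured 33.9, 29.4, 31.2 and 27.1 TPM (log2 -0.28, interval -0.42 to -0.14), and only the combination had an interval away from 0. ATM, the kinase of double-strand breaks, measured 11.8, 10.03, 9.94 and 10.7 TPM (log2 -0.10, interval -0.22 to 0.01). With trametinib alone its log2 fold change was -0.17, with an interval below 0 (-0.29 to -0.05). CHEK2, its target, measured 20.9, 17.4, 22.9 and 20.7 TPM (log2 -0.08, interval -0.30 to 0.14). No kinase passed 1.5-fold in any comparison.

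In single-strand break repair, PARP1 and XRCC1 both had their highest value in the control. PARP1, the sensor of nicks and a drug target in tumours with recombination defects, measured 111 TPM in the control, 97.7 under NBT, 91.5 under trametinib and 80.5 under both. Its log2 fold change of -0.43 with the combination rested on 4225 and 3272 counts (interval -0.50 to -0.37). XRCC1, the scaffold that PARP1 recruits, was lowest with NBT, at 40.9, 32.9, 38.4 and 35.5 TPM, and its interval with trametinib held 0.

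End joining held the most abundant genes, and its genes moved in both directions. PRKDC, the catalytic subunit of the kinase DNA-PK, measured 119 TPM in the control, 83.3 under NBT, 95.1 under trametinib and 69.4 under both. With 9625 to 15384 counts per library its counting intervals were the narrowest of the set. Its changes were -0.45 with NBT (interval -0.48 to -0.41), -0.30 with trametinib (interval -0.33 to -0.26) and -0.74 with both (interval -0.78 to -0.70), and it fell past 1.5-fold with the combination. XRCC5 and XRCC6 encode Ku80 and Ku70, the ring that loads DNA-PK on ends. XRCC5 measured 212, 186, 197 and 157 TPM (log2 -0.40 with the combination, interval -0.45 to -0.35), and XRCC6 measured 386, 365, 403 and 342 TPM (log2 -0.14, interval -0.18 to -0.09). Between these 2 libraries the subunits of 1 complex had changes of different size, with counting intervals that did not overlap. Variation between cultures, which these intervals leave out, was not measured. LIG4 (chr13:108207442-108218349, GRCh38.p14), the ligase that seals the ends, was the only gene of the 35 with its lowest value in the control and its highest with the combination, at 9.58, 11, 10.1 and 13.5 TPM. Its log2 fold changes were 0.28 with NBT (interval 0.08 to 0.48), 0.10 with trametinib (interval -0.10 to 0.31) and 0.54 with both (interval 0.35 to 0.74), 1.45-fold higher and just inside the 1.5-fold limit.

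Each drug can be read with and without the other in pairs of libraries that share none. The effect of NBT was taken once as NBT against control and once as combination against trametinib. The log2 fold change was below 0 in both for 26 of the 35 genes (74.3%), against 39.9% of the 10662 genes with at least 100 counts in a library. Intervals lay below 0 in both for 16 genes, which included BRIP1, EXO1, MSH6, FANCL and PRKDC, and above 0 in both for 3, RAD51D, RBBP8 and LIG4, beside 23.3% and 19.9% of those genes. For trametinib, taken as trametinib against control and as combination against NBT, 22 genes (62.9%) were below 0 in both, against 30.8%. Intervals lay below 0 in both for 13 genes, among them XRCC2, XRCC3, FANCA, ATR and PARP1, and above 0 in both for none, beside 17.4% and 21.05%. BRIP1, FANCC, FANCE, FANCG and FANCL had intervals below 0 in both NBT pairs and not in both trametinib pairs. FANCA and RBBP8 had them below 0 in both trametinib pairs and not in both NBT pairs. The share of all genes with such a split was not computed, and small differences can decide it. For FANCG the interval ran from -0.25 to 0.01 for trametinib against control, and from -0.48 to -0.20 for the combination against NBT. Whether the effects of the 2 drugs on these genes differ was not tested.

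The combination was set against the sum of the single-drug changes on the log2 scale. No gene departed from the sum by 1.5-fold in either direction, against 8.59% of the 11367 genes with at least 50 counts in a library. That background was not matched in depth: it holds genes with fewer counts than any of the 35, whose departures carry more counting error. The median departure was -0.07, against -0.03 for all genes. Counting intervals of the departure lay below 0 for 10 of 35 genes (28.6%, against 24.0% of all genes), and above 0 for 1 (WRN, 0.41), against 19.1% of all genes. Those below were FANCE (-0.47), BARD1 (-0.44), FANCL (-0.41), BRIP1 (-0.41), MSH6 (-0.38), XRCC3 (-0.31), PALB2 (-0.26), FANCG (-0.22), XRCC6 (-0.21) and XRCC5 (-0.19). PRKDC was additive to within its counts, with a sum of -0.75 and a measured value of -0.74, and so were XRCC2 (sum -0.83, measured -0.80) and ATR (sum -0.52, measured -0.47).

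**Figure D3:**
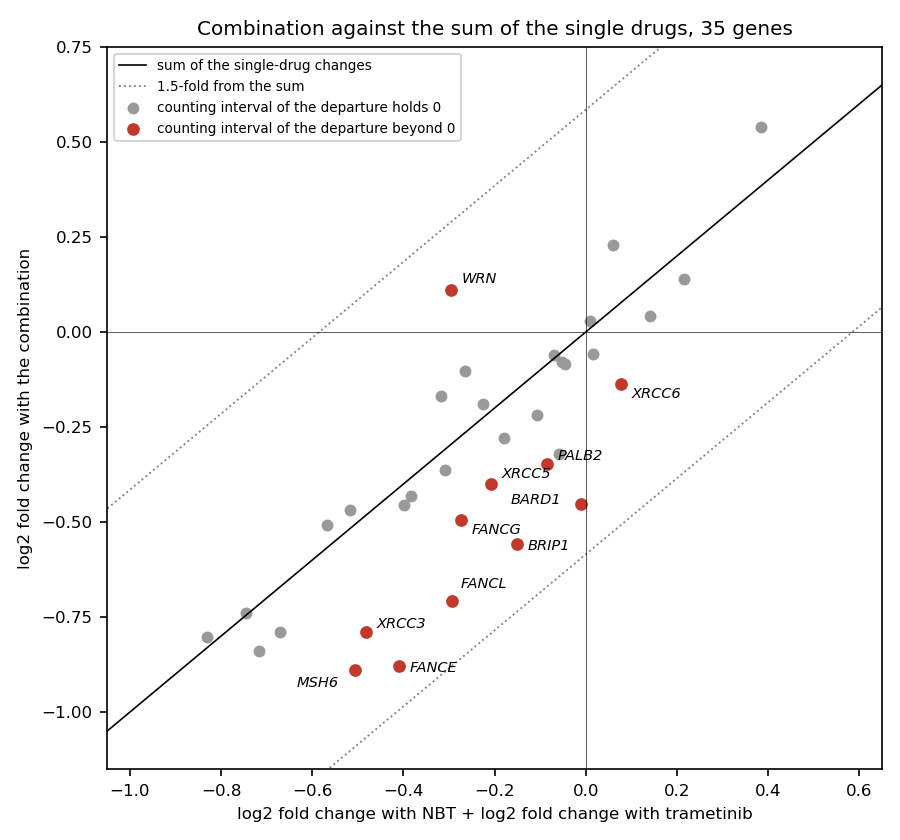
Log2 fold change of each of the 35 genes with the combination (vertical) against the sum of the changes with NBT and with trametinib (horizontal), with the solid line at equality and dotted lines 1.5-fold from it. Named red points have a counting interval of the departure beyond 0: 10 lie below the line, WRN lies above it, and every gene is between the dotted lines.

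Other genes of the same pathways went both ways. In 115 further repair and checkpoint genes (recombination 25, Fanconi 11, mismatch 7, end joining 8, base excision and single-strand breaks 20, nucleotide excision 21, checkpoint 23), the median log2 fold change with the combination was -0.05, with 44 intervals below 0 and 35 above. The medians by list were -0.05, -0.21, -0.07, 0.43, -0.11, 0.07 and -0.14 in that order. Among genes with at least 100 counts, 35.9% had intervals below 0 and 37.7% above. With the 2-fold rule 5 of the 115 were lower and 1 higher, beside 3.69% and 4.73% of all genes tested. The 5 were UHRF1, which reads hemimethylated DNA at forks (-1.28), PCNA, the replication clamp (-1.14), the glycosylases UNG (-1.08) and NTHL1 (-1.24), and CLSPN, the adaptor through which ATR reaches CHEK1 (-1.27). The 1 higher was the end joining factor APLF, on 18 counts in the control and 44 with the combination. Of the 8 other end joining genes 5 had intervals above 0 and 2 below, beside the same 37.7% and 35.9%. The 2 below were PAXX (-0.47) and POLM (-0.29). The nuclease gene DCLRE1C was at 0.58. XRCC4, the partner of LIG4 and named after its values were seen, was at 0.39. The nucleotide excision sensor DDB2 was at -0.65 with NBT, 0.83 with trametinib and -0.67 with both, where it passed the 2-fold rule against trametinib alone.

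Genes of the cell cycle and of damage signalling moved beside the repair genes. Of 29 replication genes, counting intervals lay below 0 for 25 under NBT, 14 under trametinib and 27 under both drugs, with medians of -0.38, -0.13 and -0.82. Among genes with at least 100 counts, 30.7%, 27.8% and 35.9% had such intervals. By the 2-fold rule 9 of the 29 were lower with the combination, among them MCM3 (-1.31) and E2F1 (-1.70). Of 25 mitosis genes, medians were -0.17, 0.08 and -0.08, and none passed the 2-fold rule with the combination. Their counting intervals lay below 0 for 15, 6 and 14 genes in the same order, and above 0 for 2, 12 and 7. Among genes with at least 100 counts, 27.5%, 37.8% and 37.7% had intervals above 0. The part of the cell cycle in the changes of the 35 genes was not tested. Of 20 genes that DNA damage or stress can induce, 7 were higher and 1 lower by the 2-fold rule with the combination. The shares of all genes tested were 4.73% and 3.69%. The 1 lower was PLK3 (-1.21). The median of the 20 was 0.30, with 11 counting intervals above 0 and 2 below. The 7 included the cycle inhibitor CDKN1A (550 to 2294 counts, log2 1.996) and GADD45A (382 to 1951 counts, log2 2.29). With trametinib alone CDKN1A was already at 1.78. Several of these also answer other stresses, as do DDIT3 (3.66) and SESN2 (3.42), which stood at 2.67 and 2.86 with NBT alone. All 10 genes of MEK output were lower by the 2-fold rule with trametinib (median -3.27) and with the combination (median -2.77).

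**Figure D4:**
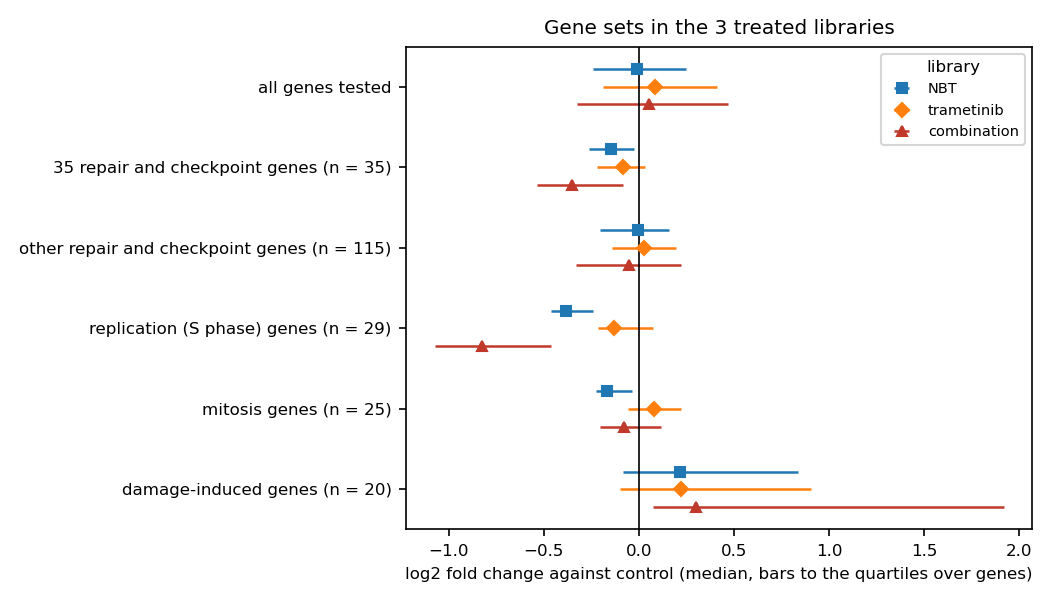
Median log2 fold change against the control library with quartiles over genes as bars, for all genes tested, the 35 repair and checkpoint genes, 115 other repair and checkpoint genes, 29 replication genes, 25 mitosis genes and 20 damage-induced genes, with NBT (squares), trametinib (diamonds) and the combination (triangles). The 35 genes lie at -0.35 with the combination, between the replication genes at -0.82 and the other repair genes at -0.05.

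Transcript estimates within a gene also differed between libraries. The 35 genes had 202 RefSeq transcripts in the table, with 1 transcript for 7 genes, and 29 transcripts of 16 genes shifted their share of the gene's counts by at least 20 percentage points between the control and a treated library. Among the 28 genes with more than 1 transcript these were 57.1% of genes and 14.9% of transcripts, beside 33.4% of 8266 such genes and 10.5% of their transcripts over the whole table, at the same minimum of 100 counts in every library. For RBBP8, NM_002894.3 went from 38.8% in the control to 63.6% with NBT, 78.6% with trametinib and 85.5% with both. For FANCE, NM_021922.3 went from 50.4% to 27.0%, 38.4% and 0.0%. For BARD1, NM_000465.4 went from 59.2% to 79.7%, 68.5% and 91.8%, and for BRCA1, NM_007297.4 went from 36.4% to 53.4%, 22.5% and 6.94%. For LIG4, NM_001352603.1 went from 0.0% to 36.6%, 20.03% and 77.1%, and NM_001330595.1 from 60.7% to 0.0%, 32.4% and 0.0%. The estimates divide reads that transcripts share and their error is unknown, so the shifts are given as values only.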

How the data were processed

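The authors sequenced RNA of 4 libraries on a BGISEQ-500 platform, and the submitters' processing notes name Bowtie2 2.2.5, RSEM 1.2.8 and the build hg38. Per gene and per RefSeq transcript the authors deposited estimated counts (not normalized), TPM (scaled to length and library) and FPKM (not used here). The labels place 1 library in each condition.

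Estimated counts were rounded, scaled to library sums and compared as log2 ratios with 0.5 reads added. Intervals (95%, Clopper-Pearson) cover counting error only. The binomial comparison was Benjamini-Hochberg adjusted over all genes with a count, with numpy 2.4.6 and scipy 1.17.1. It was tested on data simulated with counting error only, as the comparison assumes, so that test does not cover variation between cultures. The comparison is of libraries, not conditions, so no p-value is given. Additivity used genes with at least 50 counts. Alternatives were edgeR 4.0.16 (TMM factors; negative binomial exact test, taking the coefficient of variation as 0.2 or 0.4), DESeq2 1.42.0 size factors, TPM plus 0.1, 5 reads added, summed transcript counts, count minimums of 10 and 100, and a log2 limit of log2 1.5. The minimum of 100, and the use of genes of that depth as background, were chosen after seeing the data.

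The 35 genes and the other gene lists were chosen with earlier results of these data known. All 35 were named. Of other lists, genes called could be named, and otherwise those among the 2 highest and 2 lowest with the combination at 100 counts or more; not every such gene is printed. Promoter sequences are RefSeq's (GRCh38.p14); 27 of the 31 matched genes had their strand found in GENCODE 29 transcripts. Some results on other repair genes are not reported here.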

Additional observations from a re-analysis of the deposited data

Results flagged for a closer look

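XRCC6, the gene of Ku70, drew attention because trametinib moved it in opposite directions without and with NBT. Its log2 fold change was 0.090 for trametinib against control (interval 0.04 to 0.13) and -0.12 for the combination against NBT, with counting intervals beyond 0 in opposite directions. The difference between them was not tested, since each condition has 1 library. With edgeR's TMM factors the 2 values were 0.02 and -0.16, with DESeq2 size factors 0.02 and -0.15, and on the TPM scale 0.06 and -0.10. XRCC6 had 7714, 7915, 8286 and 7331 counts in the control, NBT, trametinib and combination libraries. With TMM factors (interval -0.03 to 0.06) and DESeq2 size factors (-0.02 to 0.07) the trametinib-against-control interval held 0. Scaled to library sums, 1 of the 35 genes, XRCC6, had opposite intervals in the 2 trametinib pairs. Such intervals were also found for 601 of the 10662 genes with at least 100 counts in a library.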

How the results depend on the processing

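No paired analysis was possible because each condition has 1 library. The median log2 fold changes of the 35 genes kept their sign under each scaling, pseudocount and summing alternative, from -0.21 to -0.14 for NBT, -0.16 to -0.08 for trametinib and -0.38 to -0.35 for the combination, each against control, from -0.22 to -0.19 for the combination against NBT and from -0.21 to -0.16 against trametinib. The combination held the lowest value for 22 to 24 genes. With TMM factors or DESeq2 size factors, 2 genes in place of 1 were past 1.5-fold lower in combination against NBT, and 1 in place of 2 had an interval above 0 with trametinib (XRCC6 was lost) and with the combination (FANCF was lost) against control. On the TPM scale 1 gene (BRIP1) was past 1.5-fold lower with NBT. Over all alternatives, from 0 to 9 genes were past 1.5-fold lower in combination against control, and from 0 to 6 against trametinib. With an assumed coefficient of variation of 0.2 or 0.4, 0 genes were past 1.5-fold lower in combination against control, NBT or trametinib, where counting error alone gave 8, 1 and 5 and variation between cultures was not measured. With 1 library per condition, such assumed variation leaves little room to call changes as small as these. No gene was called at 2-fold, and lowering the limit gave the same 8, 1 and 5. Of 525 recomputed values of single genes, 11 changed sign, in values of at most 0.05 in size.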
